A study of Arabidopsis thaliana with 12 samples.

Results

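A set of 10 genes of the jasmonate pathway and of one of its outputs were followed in whole seedlings of Arabidopsis thaliana: LOX2 (AT3G45140), AOS (AT5G42650), AOC1 (AT3G25760), OPR3 (AT2G06050), JAZ1 (AT1G19180), JAZ10 (AT5G13220), MYC2 (AT1G32640), VSP1 (AT5G24780), VSP2 (AT5G24770) and NATA1 (AT2G39030). They are 10 of the 28775 loci counted, and all 10 passed the filter on low counts. NATA1 was chosen by its measured level in these libraries, high in the plants overexpressing a GRF and low in wild type, so its levels against wild type are a description with no test. The other 9 are textbook genes of the pathway, listed with earlier results of these data known.

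The study asked which genes respond to GRF1 and GRF3, growth-regulating factors, which are plant transcription factors of growing tissue. Messenger RNA was sequenced from plants of the Ws strain, 14 days old, grown on MS medium, in 4 genotypes with 3 libraries each. WT had no transgene. GRF1_OE carried 35S:GRF1-GFP and GRF3_OE carried 35S:GRF3-GFP, in which the 35S promoter of a plant virus, active in most cells, drives a GRF fused to green fluorescent protein. The libraries labelled grf123 came from the grf1/grf2/grf3 mutant. The plants were laid out in randomized complete blocks, with 3 replications, but no label ties the numbered libraries to the blocks. The labels gave neither the number of independent transgenic lines nor the number of plants pooled per library. The p-values measure the spread between these libraries, part of which may be technical.

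Jasmonates are fatty-acid hormones made after wounding and insect attack. LOX2, AOS and AOC1 act in that order in the chloroplast and OPR3 acts in the peroxisome; the product is joined to isoleucine to give the active hormone. The hormone makes the receptor COI1 bind JAZ proteins, which are then destroyed, and this frees MYC2 and related factors to switch on targets, among them the JAZ genes themselves and the vegetative storage proteins VSP1 and VSP2. NATA1 is an acetyltransferase that makes N-delta-acetylornithine, a defence amino acid, in leaves treated with jasmonate.

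Several of these genes lie next to a close copy, and the sequences just before the gene starts are shown because those neighbours moved alike in some comparisons below and not in others. VSP1 (chr5:8507590-8509201, minus strand) and VSP2 (chr5:8500468-8502224, minus strand) share 89.1% of aligned transcript bases and lie 5365 bases apart. AOC1 (chr3:9403779-9405338, plus strand) shares 85.3% with AOC2, 1330 bases away. The others are LOX2 (chr3:16525245-16529352, plus strand), AOS (chr5:17097564-17099595, minus), OPR3 (chr2:2359114-2362375, minus), JAZ1 (chr1:6621777-6623668, plus), JAZ10 (chr5:4218786-4221077, plus) and MYC2 (chr1:11798119-11801407, minus), in TAIR10.1. NATA1 (chr2:16298110-16299205, plus strand, a single exon) shares 74.4% with NATA2, 1614 bases away. Of the 50-base windows in the exons, 2.20% of those of AOC1, 0.427% of those of VSP1 and 0.355% of those of VSP2 occur elsewhere in the genome, and none of those of NATA1 do, so nearly all windows of these genes were unique to one copy. The lines below give the 250 bases before each annotated gene start in the TAIR10.1 reference genome (RefSeq), read on the gene's strand, 5′ to 3′. That genome is from the Columbia strain, not Ws. Capitals mark runs of at least 12 bases that the neighbours have in common.
VSP1, chr5:8509202-8509451, minus strand: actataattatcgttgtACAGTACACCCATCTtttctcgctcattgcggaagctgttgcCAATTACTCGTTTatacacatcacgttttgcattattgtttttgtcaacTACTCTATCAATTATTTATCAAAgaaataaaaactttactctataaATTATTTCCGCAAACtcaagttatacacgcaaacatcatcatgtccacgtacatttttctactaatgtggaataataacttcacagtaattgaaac
VSP2, chr5:8502225-8502474, minus strand: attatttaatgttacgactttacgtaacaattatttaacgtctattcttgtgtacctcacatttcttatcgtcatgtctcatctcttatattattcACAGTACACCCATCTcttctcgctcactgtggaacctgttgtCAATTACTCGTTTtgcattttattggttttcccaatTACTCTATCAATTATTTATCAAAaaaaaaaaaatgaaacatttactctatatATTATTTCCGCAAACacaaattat
AOC1, chr3:9403529-9403778, plus strand: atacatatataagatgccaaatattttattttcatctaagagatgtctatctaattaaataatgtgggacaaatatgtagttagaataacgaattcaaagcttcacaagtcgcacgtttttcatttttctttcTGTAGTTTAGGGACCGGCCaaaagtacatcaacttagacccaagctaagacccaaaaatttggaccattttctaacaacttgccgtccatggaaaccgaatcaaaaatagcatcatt
AOC2, chr3:9406419-9406668, plus strand: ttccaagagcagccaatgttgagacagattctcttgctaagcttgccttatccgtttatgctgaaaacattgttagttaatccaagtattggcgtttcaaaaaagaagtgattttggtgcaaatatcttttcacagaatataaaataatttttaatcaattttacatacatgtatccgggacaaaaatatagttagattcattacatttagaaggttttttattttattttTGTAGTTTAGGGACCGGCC
NATA1, chr2:16297860-16298109, plus strand: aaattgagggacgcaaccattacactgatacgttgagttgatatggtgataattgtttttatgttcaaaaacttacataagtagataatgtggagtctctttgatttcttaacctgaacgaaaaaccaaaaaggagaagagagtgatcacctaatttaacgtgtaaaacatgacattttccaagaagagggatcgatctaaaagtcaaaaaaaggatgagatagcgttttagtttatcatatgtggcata
The VSP pair had 4 common runs that covered 66 bases, in the same order, the longest of 23 bases. The AOC pair had 1 run of 19 bases, close to the start of AOC2 and farther from that of AOC1. NATA1 and NATA2 had none, so the NATA1 line has no capitals. In all, 3 motifs were searched on both strands in these windows. CACGTG, the G-box bound by MYC2, was in 1 of the 10 genes, AOS, at 6 bases before its start, and in 6.49% of the windows of 27443 protein-coding genes. CATGTG or CACATG, a related element, was in LOX2 and JAZ10, that is 2 of 10, and in 11.1% of all windows. TGTCAG or CTGACA, part of the TGTCAGG element bound by GRF7, was in AOS and JAZ10, again 2 of 10, and in 5.30% of all windows. A match is a description of these letters and no evidence of binding.

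The libraries were checked first. Gene counts per library ran from 2820223 to 14277574. Levels are given as CPM, gene counts scaled to one library size with TMM factors (trimmed mean of M-values). GRF1 was at 116 to 186 CPM in GRF1_OE against 15.8 to 18.9 in WT, and GRF3 was at 194 to 220 CPM in GRF3_OE against 15.9 to 29.4 in WT. In the libraries labelled grf123, GRF1 was at 7.78 to 10.002 CPM and GRF2 at 0.754 to 1.22 against 8.33 to 12.4 in WT, but GRF3, at 19.7 to 24.7 CPM, was within the WT range, which goes against the label. Counts over a whole gene need not show an insertion that breaks a transcript. On the other strand GRF1 overlaps 1 locus and GRF3 overlaps 2. The sources give no strand setting for the counting, so reads of these overlaps cannot be told apart. GRF2 was also low in both overexpressors, at 0.308 to 1.28 CPM, and GRF1 was as low in GRF3_OE, at 8.66 to 8.93 CPM, as in grf123. Against WT, a high GRF level cannot be told apart from a low GRF2 level in either overexpressor, nor from a low GRF1 level in GRF3_OE.

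One library stood apart. WT replicate 3 had the fewest gene counts, 2820223, and its summed level of 6 touch and handling markers was 431.9 CPM against 87.8 and 116 CPM in the other WT libraries. It was also the highest WT library for 8 of the 10 genes. The marker sums were 77.6 to 91.0 CPM in GRF1_OE, 104 to 131 CPM in GRF3_OE and 40.6 to 56.9 CPM in grf123. The part of handling in the differences below was not tested; values without WT replicate 3 are given where they matter. Markers of organs also moved with genotype. The summed level of 5 root markers was 65.8 to 75.1 CPM in WT and 40.1 to 57.3 CPM in the other genotypes. SCR made up most of that sum, at 47.7 CPM in WT. Of the 4 root markers that passed the filter, 4 were lower than in WT in GRF1_OE, 1 in GRF3_OE and 3 in grf123, with median log2 differences of -2.0, -0.84 and -2.33. PRP3 had a mean of 14.0 CPM in WT, 3.41 in GRF1_OE and 2.26 in grf123. The sum of 5 flower markers was 19.6 to 25.8 CPM in the overexpressors and 7.31 to 12.6 CPM elsewhere, and that of 4 seed markers was 5.83 to 37.1 CPM in WT, 0.487 to 38.6 CPM in grf123 and 0 to 0.411 CPM in the overexpressors. The sum of 4 leaf markers was 20164 to 25717 CPM and overlapped between all genotypes, but its members did not move together. In GRF1_OE LHCB2.1 was lower than in WT (-0.48, edgeR adjusted p = 0.00768). RBCS1A (0.29, 0.0674) and PSBO1 (0.18, 0.222) lay above WT there and LHCB1.3 (-0.21, 0.197) below it, without overlap, and did not pass the test. In whole plants, fewer cells of a type and less RNA per cell cannot be told apart.

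NATA1 was the lowest of the 10 genes in WT per length of transcript and ranked higher in the order in the other genotypes. Its level in WT was 2.41, 0.727 and 4.38 CPM in replicates 1 to 3, from only 19, 5 and 10 counts. In GRF1_OE it was 18.5, 10.4 and 12.7 CPM, and in GRF3_OE 15.4, 8.94 and 14.6 CPM. In grf123 it was 6.0, 9.74 and 12.7 CPM. Every library of the 3 other genotypes was above every WT library, and those genotypes overlapped one another. The log2 difference from WT was 2.74 in GRF1_OE, 2.66 in GRF3_OE and 2.28 in grf123, which shares the same WT libraries. Without WT replicate 3 these were 3.06, 2.98 and 2.61, and without WT replicate 2, the lowest library, 2.22, 2.14 and 1.76. Between the other genotypes no difference passed the test: GRF1_OE was 0.46 above grf123 on the log2 scale (SE 0.36, edgeR quasi-likelihood adjusted p = 0.427), GRF3_OE was 0.38 above it (SE 0.36, adjusted p = 0.528), and the overexpressors differed by 0.08 (SE 0.35, adjusted p = 0.976). NATA2, the neighbouring copy, was at 33.0 to 44.1 CPM in all 12 libraries, and none of its 6 comparisons passed the test.

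**Figure D1:**
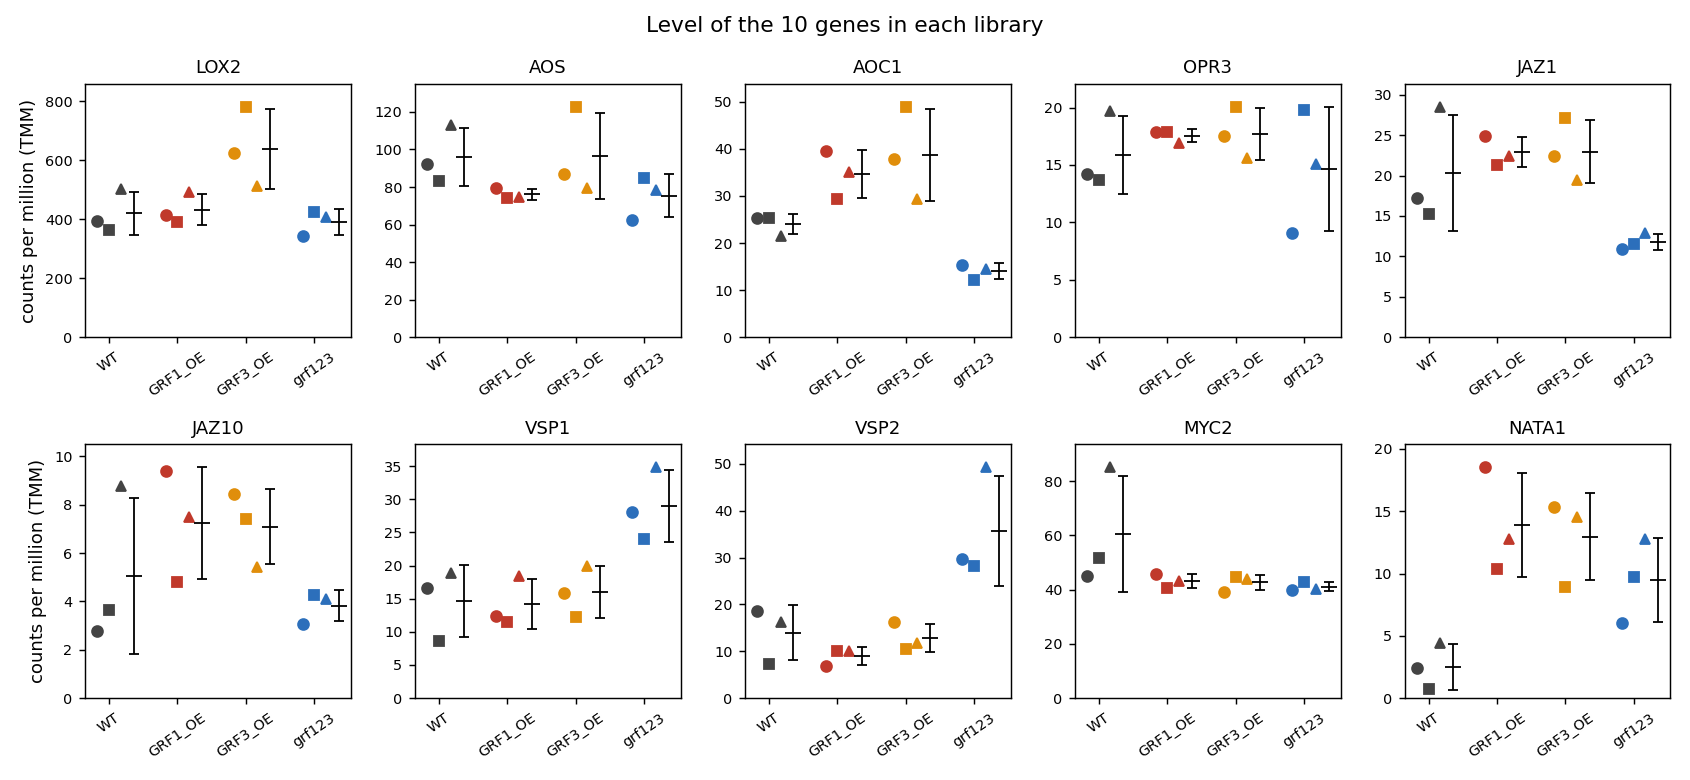
Level of each of the 10 genes in CPM (linear axis from 0, one panel per gene) by genotype, with circles, squares and triangles for replicates 1, 2 and 3 and bars for the mean and SD over 3 libraries. NATA1 is at 0.727 to 4.38 CPM in WT and at 6.0 CPM or more elsewhere, VSP1 and VSP2 are highest in grf123, and AOC1 and JAZ1 are lowest there.

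The genes were counted as called when the Benjamini-Hochberg adjusted p of the edgeR quasi-likelihood F test, over 17938 genes, was under 0.05. Of the 9 genes tested against WT, 1 was called in GRF1_OE, higher, where 21.8% of all genes were called (10% higher and 11.8% lower), so that count is no result about these genes. In GRF3_OE 2 of 9 were called, both higher, where 12.4% of all genes were called (6.07% higher and 6.34% lower). In grf123 4 of 9 were called, 2 higher and 2 lower, where 4.88% of all genes were called (2.11% higher and 2.77% lower). Between GRF1_OE and grf123 4 of 10 were called, 2 higher and 2 lower in GRF1_OE, where 17.6% of all genes were called (7.94% higher and 9.67% lower). Between GRF3_OE and grf123 5 of 10 were called, 3 higher and 2 lower in GRF3_OE, where 14.9% of all genes were called (7.53% higher and 7.38% lower). Between the overexpressors edgeR called 0 of 10, with 1.14% of all genes called (0.485% higher and 0.652% lower in GRF1_OE); 2 had an unadjusted p under 0.05, and DESeq2 called 1, LOX2.

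The libraries of both groups did not overlap for 2, 3 and 5 of the 9 genes in GRF1_OE, GRF3_OE and grf123 against WT, and for 38.6%, 32.2% and 20.9% of all genes. They did not overlap for 2 of 10 between the overexpressors, 5 of 10 between GRF1_OE and grf123 and 6 of 10 between GRF3_OE and grf123, and for 18.1%, 35.8% and 34.1% of all genes. The median log2 difference of the tested genes was 0.05, 0.23 and -0.13 against WT in GRF1_OE, GRF3_OE and grf123, while the median of all genes was between -0.01 and 0.01 in every comparison. The comparisons share libraries, so their calls are not independent of one another.

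Among the enzymes of jasmonate synthesis, AOC1 changed in most comparisons, LOX2 was higher in GRF3_OE, and AOS and OPR3 were not called in any comparison. AOC1, the cyclase that fixes the ring of the hormone, was at 25.4, 25.3 and 21.5 CPM in WT. It was at 39.6, 29.4 and 35.2 CPM in GRF1_OE and at 37.8, 48.9 and 29.4 CPM in GRF3_OE. In grf123 it was at 15.4, 12.2 and 14.5 CPM. Every overexpressor library was above every WT library, and every grf123 library was below. AOC1 was higher than in WT by 0.49 (log2; SE 0.16, edgeR adjusted p = 0.0336) in GRF1_OE and by 0.65 (SE 0.16, adjusted p = 0.0118) in GRF3_OE, and lower in grf123, at -0.78 (SE 0.18, adjusted p = 0.0126). The direct difference was 1.27 (SE 0.17, adjusted p = 2.56e-05) for GRF1_OE over grf123 and 1.43 (SE 0.17, adjusted p = 9.86e-06) for GRF3_OE over grf123, and both calls held in all 19 alternative settings. The calls against WT were less stable. In GRF1_OE the AOC1 call was lost when GRF1_OE replicate 1 (adjusted p = 0.146) or 3 (0.0783), or WT replicate 1 (0.0671), 2 (0.0765) or 3 (0.0918) was left out. In GRF3_OE it was lost without GRF3_OE replicate 2 (0.0792), and in grf123 without grf123 replicate 2 (0.0533) or 3 (0.0853) or WT replicate 2 (0.0641).

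LOX2, the lipoxygenase that starts the chloroplast branch, had the highest level of the 10 genes. It was at 393, 365 and 502 CPM in WT, at 416, 390 and 492 CPM in GRF1_OE, and at 342, 426 and 408 CPM in grf123, ranges that overlap. In GRF3_OE it was at 625, 781 and 511 CPM, above all 9 other libraries. LOX2 was 0.61 higher on the log2 scale in GRF3_OE than in WT (SE 0.15, edgeR adjusted p = 0.0170) and 0.71 higher than in grf123 (SE 0.15, adjusted p = 0.00547). The LOX2 call against WT was lost without GRF3_OE replicate 2 (adjusted p = 0.0601), WT replicate 1 (0.0558) or WT replicate 2 (0.0650), and in a fit of the 6 compared libraries (0.0521); that against grf123 held in all 19 alternatives. In GRF1_OE the LOX2 difference from WT was 0.05 (SE 0.15, adjusted p = 0.862). GRF1_OE was 0.56 below GRF3_OE, with an edgeR adjusted p of 0.0935 and a DESeq2 adjusted p of 0.0196, and edgeR called it without GRF3_OE replicate 3 (adjusted p = 0.0193) or WT replicate 3 (0.0365).

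AOS, the allene oxide synthase that takes over the product of LOX2, was at 92.3, 83.1 and 113 CPM in WT, 79.6, 74.2 and 74.8 CPM in GRF1_OE, 87.1, 123 and 79.6 CPM in GRF3_OE, and 62.6, 84.9 and 78.4 CPM in grf123. GRF1_OE lay below WT without overlap, with a log2 difference of -0.32 that did not pass (edgeR adjusted p = 0.161), and the other genotypes overlapped WT. OPR3, the reductase of the peroxisome, was at 13.7 to 19.7 CPM in WT, 16.9 to 17.9 CPM in GRF1_OE, 15.6 to 20.1 CPM in GRF3_OE and 9.08 to 19.8 CPM in grf123, and the ranges overlapped. Across libraries of one genotype LOX2 and AOS rose and fell together, with a Pearson r of 0.88 over the deviations of 12 libraries from their genotype means; libraries share their depth and handling, and this is a description.

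The 2 JAZ repressors are targets of the pathway they hold back. JAZ1 was at 17.2, 15.3 and 28.5 CPM in WT, with the highest value in WT replicate 3. It was at 24.9, 21.4 and 22.5 CPM in GRF1_OE and at 22.4, 27.1 and 19.4 CPM in GRF3_OE, both of which overlap WT. In grf123 it was at 10.9, 11.6 and 12.9 CPM, below all 9 other libraries. JAZ1 in grf123 was at -0.66 (log2; SE 0.19, edgeR adjusted p = 0.0464) against WT, a call lost in 12 of 19 alternatives; without WT replicate 3 it was -0.44 (adjusted p = 0.156). Against grf123 JAZ1 was higher by 0.93 (SE 0.18, adjusted p = 0.000869) in GRF1_OE and by 0.94 (SE 0.18, adjusted p = 0.00103) in GRF3_OE, and both calls held in all 19 alternatives. Against WT the overexpressors were both 0.28 higher, with adjusted p of 0.274 and 0.309. JAZ1 in GRF1_OE was called only without WT replicate 3, at 0.49 (adjusted p = 0.0315).

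JAZ10 was at 2.79, 3.63 and 8.77 CPM in WT, again highest in WT replicate 3. It was at 9.41, 4.83 and 7.48 CPM in GRF1_OE and 8.46, 7.42 and 5.42 CPM in GRF3_OE. In grf123 it was at 3.08, 4.26 and 4.11 CPM, below every overexpressor library, while WT overlapped all genotypes. No JAZ10 difference passed the test: it was 0.76 (edgeR adjusted p = 0.111) and 0.75 (0.149) in the overexpressors against WT, and 0.88 (0.0599) and 0.87 (0.0692) against grf123. Without WT replicate 3 the differences from WT were 1.14 (adjusted p = 0.0106) and 1.13 (0.0222), and without GRF1_OE replicate 2 that of GRF1_OE was 1.01 (0.0428). Against grf123 JAZ10 was called in 5 of 19 alternatives for GRF1_OE and in 4 for GRF3_OE. The JAZ10 gene overlaps a non-coding locus on the other strand, and the sources give no strand setting for the counting, so reads of the pair cannot be told apart. JAZ1 and JAZ10 had a within-genotype r of 0.83 over 12 libraries.

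MYC2, the transcription factor that JAZ proteins restrain, was at 45.1, 51.7 and 85.1 CPM in WT. It was at 45.8, 40.8 and 43.3 CPM in GRF1_OE, 39.3, 44.8 and 43.8 CPM in GRF3_OE and 39.9, 42.9 and 40.3 CPM in grf123. Only WT replicate 3 lay far from the rest, and GRF3_OE and grf123 were below every WT library. No MYC2 difference from WT passed in edgeR (adjusted p of 0.0704, 0.0832 and 0.0934, at -0.42, -0.44 and -0.50), and DESeq2 called that of grf123 (adjusted p = 0.0490). Without WT replicate 3 the differences were -0.16, -0.19 and -0.24. Without WT replicate 1 all 3 were called, at -0.60, -0.62 and -0.69. MYC2 also overlaps a protein-coding gene on the other strand.

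The storage proteins VSP1 and VSP2, late outputs of jasmonate signalling in leaves, were highest in the libraries labelled grf123, where AOC1 and JAZ1 were lowest. Between the overexpressors and WT no such opposite course was called. VSP1 was at 16.6, 8.57 and 18.9 CPM in WT, 12.5, 11.5 and 18.5 CPM in GRF1_OE and 15.8, 12.2 and 19.98 CPM in GRF3_OE, which all overlap. In grf123 it was at 28.1, 24.1 and 34.8 CPM, above all 9 other libraries. VSP2 was at 18.5, 7.27 and 16.2 CPM in WT, 6.86, 10.06 and 10.03 CPM in GRF1_OE, 16.3, 10.6 and 11.9 CPM in GRF3_OE and 29.7, 28.3 and 49.3 CPM in grf123. For VSP2, too, every grf123 library was above the other 9.

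VSP1 in grf123 was 1.10 higher than in WT (log2; SE 0.28, edgeR adjusted p = 0.0483) and VSP2 was 1.44 higher (SE 0.35, adjusted p = 0.0482). Both were close to the threshold and were lost in 10 and 13 of 19 alternatives; without WT replicate 3 the adjusted p was 0.0513 and 0.0999. GRF1_OE was below grf123 by a log2 difference of -1.09 for VSP1 (SE 0.27, adjusted p = 0.0156) and -2.03 for VSP2 (SE 0.35, adjusted p = 0.00364). GRF3_OE was below it by -0.88 for VSP1 (SE 0.26, adjusted p = 0.0419) and -1.53 for VSP2 (SE 0.33, adjusted p = 0.0138). Of these, the VSP2 call in GRF1_OE held in all 19 alternatives. The VSP2 call in GRF3_OE was lost without GRF3_OE replicate 2 (adjusted p = 0.0622) or 3 (0.0612), the VSP1 call in GRF1_OE in 3 alternatives and that in GRF3_OE in 6. No difference between an overexpressor and WT passed the test for VSP1 or VSP2, at 0.00 and 0.21 for VSP1 and -0.59 and -0.10 for VSP2, with adjusted p of 0.995, 0.693, 0.325 and 0.905; without WT replicate 2 VSP2 in GRF1_OE was called, at -0.96 (0.0361). VSP1 and VSP2 had a within-genotype r of 0.75 and an r of 0.89 over all 12 libraries.

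**Figure D2:**
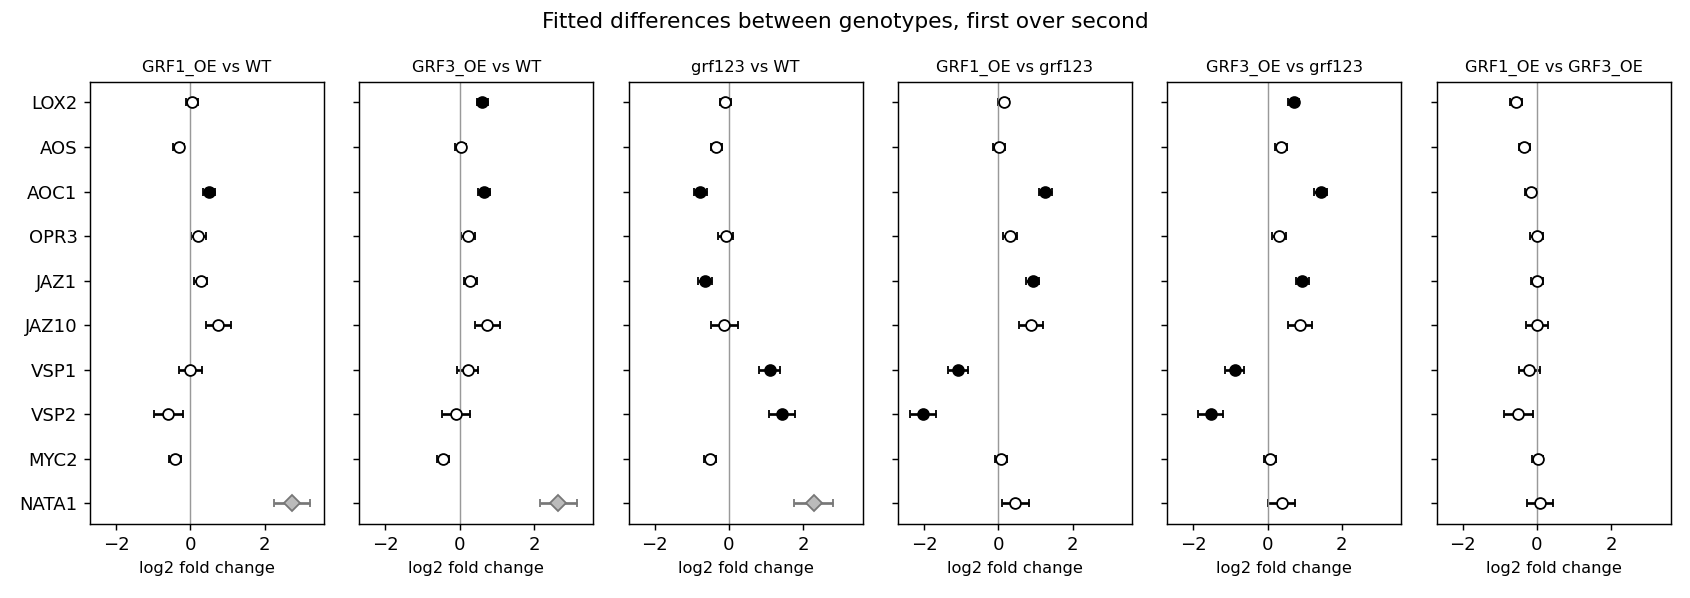
Log2 difference and its standard error for each gene in the 6 comparisons, with filled points for calls at an adjusted p under 0.05, open points for no call and grey diamonds for NATA1 against WT, which was not tested. Bars on the grey diamonds are not to be read as a test, because NATA1 was chosen by its level in these libraries. AOC1 and JAZ1 lie above 0 and VSP1 and VSP2 below 0 when the overexpressors are set against grf123.

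Per length of transcript, in CPM per kilobase of exon, LOX2 was first and AOS second in every genotype. In WT they were at 131.8 ± 22.7 and 47.3 ± 7.57 (SD, n = 3). AOC1 followed at 20.2 ± 1.86 and MYC2 at 18.4 ± 6.51, which do not differ beyond their spread. JAZ1, VSP1, OPR3 and VSP2 lay from 13.1 down to 9.28 CPM per kilobase, with overlapping spreads. JAZ10 at 2.67 ± 1.71 and NATA1 at 2.29 ± 1.67 were last and also overlapped. NATA1 was sixth in GRF1_OE at 12.7 ± 3.82, seventh in GRF3_OE at 11.8 ± 3.19 and eighth in grf123 at 8.66 ± 3.08 CPM per kilobase, and its neighbours in those orders were within its spread. In grf123 VSP2, at 23.7 ± 7.77, and VSP1, at 22.0 ± 4.12, came next after AOS, and JAZ1 was ninth at 7.56 ± 0.656.

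The rest of the pathway was read from lists of 66 other genes. Of 14 synthesis genes, 12 passed the filter; 2 were higher and 1 lower in GRF1_OE against WT, where 21.8% of all genes were called, and 1 was higher in GRF3_OE, where 12.4% were, so neither count is a result about the list. In grf123, where edgeR called 4.88% of all genes, edgeR and DESeq2 both called 0, with 4 at an unadjusted edgeR p under 0.05. AOC2, the neighbouring copy of AOC1, was at 26.5, 31.5 and 23.7 CPM in WT. It was at 89.5, 62.8 and 61.9 CPM in GRF1_OE and 66.7, 81.4 and 42.3 CPM in GRF3_OE, all above WT. In grf123 it was at 14.9, 18.9 and 21.3 CPM, all below WT. AOC2 was higher by 1.36 in GRF1_OE (log2; SE 0.26, edgeR adjusted p = 0.00493) and by 1.19 in GRF3_OE (SE 0.26, adjusted p = 0.0178); the second was lost without WT replicate 1 or 3, with a highest adjusted p of 0.0633. The difference in grf123, -0.57, was not called. Against grf123 AOC2 was 1.93 (adjusted p = 0.000896) and 1.76 (adjusted p = 0.00197) higher. In GRF1_OE KAT2, a thiolase of fatty-acid beta-oxidation, was 0.31 higher (edgeR adjusted p = 0.0328) and PXA1, the transporter that brings precursors into the peroxisome, was at -0.32 (0.0244); leaving out single libraries ended the KAT2 call in 4 of 12 cases and the PXA1 call in 3.

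Of 10 genes of jasmonate breakdown, 7 passed. Against WT edgeR called 1 in GRF1_OE, 0 in GRF3_OE and 1 in grf123. The shares of all genes called were 21.8%, 12.4% and 4.88%, and nothing is read from these counts. JRG21, an oxygenase that inactivates jasmonic acid, was 1.3 higher in GRF1_OE than in WT (SE 0.34, edgeR adjusted p = 0.0122), and this call was lost without GRF1_OE replicate 1 or WT replicate 2. ILL6, an amidohydrolase that splits the hormone from its amino acid, was at -0.79 in grf123 (SE 0.21, adjusted p = 0.0253), a call lost without grf123 replicate 3, in a fit of the compared libraries and without WT replicate 3, in which ILL6 was at 24.1 CPM against 12.04 and 13.2 in the other WT libraries. In GRF3_OE against WT edgeR and DESeq2 both called 0 of the 7, with 4 at an unadjusted edgeR p under 0.05. Against grf123, 4 of 7 were higher in GRF1_OE and the same number in GRF3_OE, where 7.94% and 7.53% of all genes were called higher. These, named after their values were seen, were ILL6 at 0.69 and 0.98, JRG21 at 1.88 and 1.62, and the loci AT5G05600 at 1.15 and 1.28 and AT2G38240 at 1.36 and 1.57 on the log2 scale. Called genes of the other lists went both ways in GRF1_OE against grf123. Synthesis had 2 higher and 2 lower, signalling 2 and 1, and wound response and ornithine metabolism 1 and 1 each. Set against grf123, GRF3_OE had 1 higher and 1 lower for synthesis and 2 and 1 for ornithine metabolism. Signalling and wound response had 2 higher and 0 lower in GRF3_OE. The breakdown list was singled out with these values known, so nothing is read from its count of 4. The JRG21 calls against grf123 held in all alternatives. The AT2G38240 call in GRF1_OE was lost in 8 of 12 cases with 1 library left out, in DESeq2 and with the replicate block; its difference ran from 0.69 to 1.93, and its highest adjusted p was 0.404. In GRF3_OE it was lost in 4 of 12 cases, without GRF3_OE replicate 1 or 2 or grf123 replicate 1 or 2. AT2G38240 was at 0.609 to 1.23 CPM in grf123, from 24 counts over 3 libraries. It passed the filter on low counts through the overexpressors, where it was high, so its calls add no support to the count of 4. In GRF1_OE the ILL6 call was lost without GRF1_OE replicate 3 or grf123 replicate 3, and that of AT5G05600 without grf123 replicate 3, so the count of 4 rests in part on single libraries.

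Of 19 signalling genes, 17 passed. In GRF1_OE 4 were lower than in WT and 0 higher: JAM1 at -0.65 (edgeR adjusted p = 0.00714) and JAM2 at -0.51 (0.0148), factors that oppose MYC2, the receptor gene COI1 at -0.47 (0.00664), and MYC3, a relative of MYC2, at -0.31 (0.0431). In that comparison 21.8% of all genes were called, 11.8% lower, so the count is no result about the list. The MYC3 call was lost in 8 of 12 cases with 1 library left out and in 5 other settings, and that of JAM2 without GRF1_OE replicate 2 or WT replicate 1. In GRF3_OE, where 12.4% of all genes were called, MYC3 was the one called, at -0.40 (edgeR adjusted p = 0.0186). That call did not hold when replicate 1 or 2 of GRF3_OE, or replicate 2 or 3 of WT, was left out, with a highest adjusted p of 0.0712. In grf123 JAZ6 was the one called of 17, where 4.88% of all genes were called, so that count is no result about the list. JAZ6 was at 40.9, 39.0 and 31.8 CPM in grf123 against 54.6, 67.0 and 85.5 CPM in WT, with no overlap. Its log2 difference was -0.88 (SE 0.16, adjusted p = 0.00324), and it was called in every alternative. JAZ7, which did not pass the filter on low counts, had 20 counts in WT replicate 3, or 8.77 CPM, and at most 0.940 CPM in the other 11 libraries.

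Of 9 wound response genes, 8 passed. Against WT 2 were lower in GRF1_OE, 1 was higher in GRF3_OE and 2 were lower in grf123, where 11.8%, 6.07% and 2.77% of all genes were called in those directions. ANAC019, a transcription factor downstream of MYC2, was at 26.5, 34.3 and 24.6 CPM in WT and at 9.57, 11.9 and 10.6 CPM in grf123, below every WT library. It was lower than in WT in grf123, at -1.46 (SE 0.18, edgeR adjusted p = 2.38e-05), and in GRF1_OE, at -1.12 (SE 0.18, adjusted p = 0.000122). In GRF3_OE ANAC019 was at 19.3 to 21.3 CPM, also below every WT library, but was not called against WT. ANAC055, its close relative, was at 4.69, 6.83 and 17.98 CPM in WT, highest in WT replicate 3, and at 1.95, 3.04 and 1.71 CPM in grf123, below every WT library. The ANAC055 difference was -2.02 (SE 0.41, adjusted p = 0.00886), and it was -1.51, still called, without WT replicate 3. The call was lost without grf123 replicate 3 (0.127) and in a fit of the 6 compared libraries (0.0705). CORI3, a gene induced by coronatine, was at -0.75 in GRF1_OE (edgeR adjusted p = 0.000113) and was also below GRF3_OE, at -0.64 (adjusted p = 0.00305). TAT3, a tyrosine aminotransferase, was at 2.28, 0.436 and 2.19 CPM in WT and at 7.05, 8.39 and 11.96 CPM in GRF3_OE, without overlap. It was also above every WT library in GRF1_OE, at 8.78, 3.08 and 3.98 CPM, and in grf123, at 4.70, 7.31 and 12.7 CPM, where the differences, 1.72 and 2.53, were not called. In GRF3_OE its log2 difference of 2.58 (SE 0.65, adjusted p = 0.0302) was lost without GRF3_OE replicate 2 or 3, without any 1 WT library and with no filter on low counts. TAT3 had only 26 counts over the 3 WT libraries. It passed the filter on low counts through the other genotypes, where it was high, so nothing is read from this call.

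NATA1 uses ornithine, and 14 genes of ornithine, arginine and polyamine metabolism were listed, of which 13 passed. In GRF1_OE 1 was higher and 2 lower than in WT: SPDS1, a spermidine synthase, by 0.36 (edgeR adjusted p = 0.00722), and the arginine decarboxylases ADC1 at -0.43 (0.0115) and ADC2 at -0.35 (0.0245). In GRF3_OE 2 were higher and 1 lower: ARGAH2, an arginase that yields ornithine, by 0.44 (0.0154), SPDS1 by 0.35 (0.0157), and ADC2 at -0.48 (0.00709). In grf123, where edgeR called 4.88% of all genes, edgeR and DESeq2 both called 0 of 13, with 1 at an unadjusted edgeR p under 0.05. The shares of all genes called were 21.8% in GRF1_OE and 12.4% in GRF3_OE, and nothing is read from 3 of 13 in each. In GRF1_OE the ADC1 call was lost without WT replicate 2, and that of ADC2 when replicate 2 or 3 of GRF1_OE, or replicate 2 or 3 of WT, was left out. In GRF3_OE the ARGAH2 call was lost without GRF3_OE replicate 2 or WT replicate 2, and that of SPDS1 without GRF3_OE replicate 1 (adjusted p = 0.0523).

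**Figure D3:**
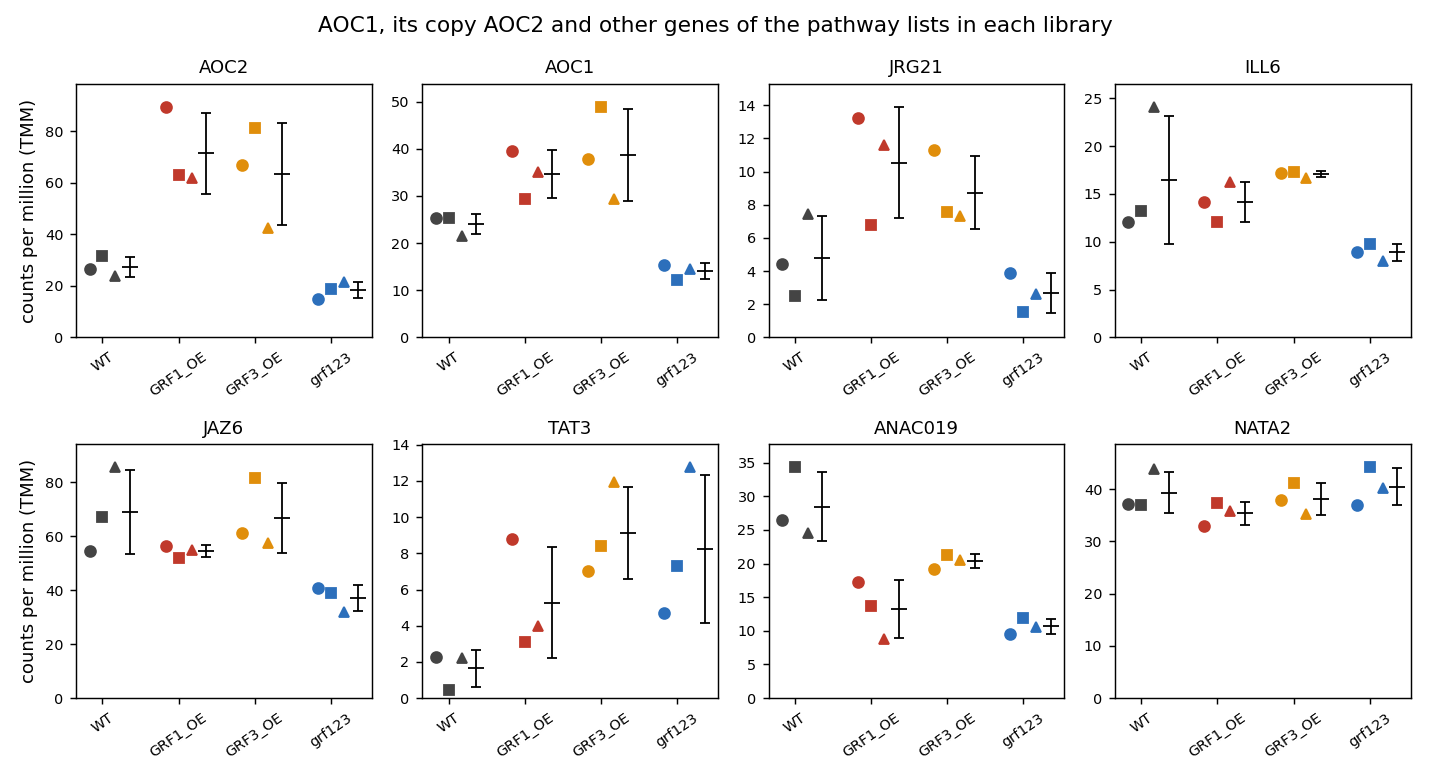
Level in CPM (linear axis from 0) of AOC1, its copy AOC2 and other genes of the pathway lists, with circles, squares and triangles for replicates 1, 2 and 3 and bars for the mean and SD over 3 libraries of each genotype. AOC2 is at 42.3 to 89.5 CPM in the overexpressors and at 14.9 to 31.5 CPM in WT and grf123, while NATA2 stays between 33.0 and 44.1 CPM.

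The genes whose levels over the 12 libraries were most like NATA1 were AT3G22850 (Pearson r of log2 CPM 0.93), AT5G10780 (0.93), AT1G07830 (0.92), AT3G57157 (0.92) and IPP2 (0.91). The genes most like VSP1 were SQS2 (0.94), OFP1 (0.93), SOT18 (0.93), QSOX1 (0.91) and XYP1 (0.89). A high r does not mean a shift of like size. Genotype means ran from 43.6 to 54.8 CPM for AT5G10780 and from 54.9 to 65.3 for IPP2, against 2.51 to 13.9 for NATA1. Those of AT3G57157, at 0.364 to 1.35 CPM, were near the floor. The means of SOT18 ran from 58.4 to 70.8 CPM, against 14.1 to 29.0 for VSP1. These are descriptions over libraries that share their genotype, depth and handling.

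**Figure D4:**
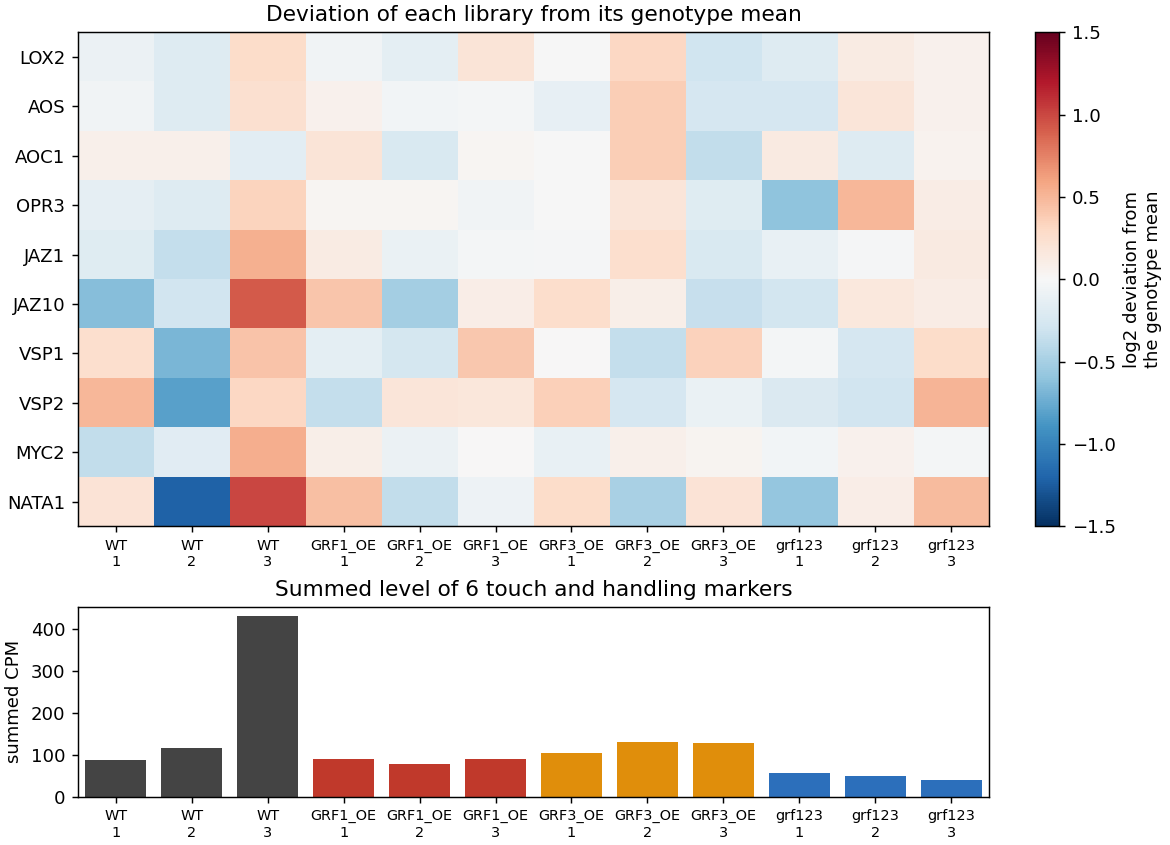
Deviation of each of the 10 genes in each library from its genotype mean, as colour on the log2 CPM scale, above bars of the summed CPM of 6 touch and handling markers per library. WT replicate 3 lies above the other WT libraries for 8 of the 10 genes, and its bar is at 431.9 CPM.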

How the data were processed

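The authors deposited raw whole-number counts per locus for 12 libraries, with no normalization. The submitters' processing notes name Trimmomatic, TopHat2 2.0.14, HTSeq, DESeq2 and the TAIR10 build. The annotation release, the strand setting and the hour of harvest are not given in the sources used here. HTSeq leaves out reads with more than 1 alignment. The 5 rows that name no gene took 57.6 to 76.9% of counts and were left out. Of reads with 1 alignment, 4.08 to 5.11% lay outside genes in the overexpressors and 6.39 to 12.1% in WT and grf123, without overlap. TMM factors were 1.04 to 1.07 in the overexpressors and 0.809 to 1.02 in WT and grf123. The locus with the most counts, taken to be that of a ribosomal RNA, took 13.1 to 31.8% of gene counts. The share was lowest in GRF3_OE replicate 3 and highest in WT replicate 3. The part of these in the differences was not tested.

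Genotype and replicate came from the sample titles. edgeR 4.0.16 in R 4.3.3 took genes past filterByExpr (at least 10 counts, 15 in total), scaled them with TMM factors and fitted all 12 libraries by genotype alone in a robust quasi-likelihood model with 8 residual degrees of freedom. The F test was adjusted by Benjamini-Hochberg over 17938 genes and called under 0.05. The standard error is the absolute log2 difference over the square root of F. Log2 CPM used a prior count of 2. An exact two-sided permutation test of 3 against 3 libraries cannot go below 0.1, so none was run. Alternatives were RLE and upper-quartile factors, DESeq2 1.42.0, no filter on low counts, at least 1 CPM in 3 libraries, a replicate block, a fit of the compared libraries, and leaving out each library. The fit was also run on simulated data, with the same spread for every gene, no outlying library and changes only in well-counted genes. These data differ in all of these, so that run says nothing about genes with few counts or about WT replicate 3. Coordinates, copies and sequences came from TAIR10.1, read with Python 3.11.15 and Biopython 1.88.

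The 10 genes, the 66 other pathway genes and the marker lists were chosen with earlier results of these data known. Beyond the 10, up to 3 called genes per list and direction were named per comparison with WT, by size of the difference, and the 5 genes most like NATA1 and VSP1. MYC3 in GRF1_OE against WT was named beyond this limit of 3. Genes named only for comparisons with grf123 or between the overexpressors, NATA2, JAZ7 and the organ markers were chosen after their values were seen.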

Additional observations from a re-analysis of the deposited data

Results flagged for a closer look

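For 4 genes the overexpressors and the libraries labelled grf123 lay on opposite sides of WT and also differed from each other by the edgeR quasi-likelihood test of the direct difference. Between GRF1_OE and grf123 the log2 difference was 1.27 for AOC1, 0.93 for JAZ1 and -2.03 for VSP2. Between GRF3_OE and grf123 it was 0.71 for LOX2, 1.43 for AOC1, 0.94 for JAZ1 and -1.53 for VSP2. The side of WT was not stable for 2 of these pairs: VSP2 in GRF3_OE went from -0.10 to 0.34 without WT replicate 1 and to 0.02 without GRF3_OE replicate 2, and LOX2 in grf123 went from -0.09 to 0.05 without WT replicate 3. The side of WT on which a genotype lay was itself called for AOC1 in all 3 genotypes, for LOX2 in GRF3_OE only, and for JAZ1 and VSP2 in grf123 only.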

How the results depend on the processing

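No called difference changed sign in any of the 19 alternatives. Among uncalled differences from WT, several did when 1 library was left out. These were LOX2 and VSP1 in GRF1_OE, AOS, VSP1 and VSP2 in GRF3_OE, and LOX2, OPR3 and JAZ10 in grf123. WT libraries share the estimate of the spread with comparisons they are not part of: without WT replicate 3, LOX2 was called between the overexpressors and JAZ10 between each overexpressor and grf123. In a fit of the 6 compared libraries alone, 1 of the 9 genes was called in GRF3_OE against WT and 1 in grf123 against WT; the count over all genes was 535 in grf123 against WT and 408 between the overexpressors. In grf123 against WT, upper-quartile factors and no filter on low counts each left 2 of 9 called. Between the overexpressors DESeq2 called 1 of 10. DESeq2 left 2 genes per comparison without an adjusted p.

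Leaving out each library in turn gave ranges of genes called of 2494 to 4169 in GRF1_OE against WT, 1200 to 2540 in GRF3_OE against WT and 377 to 1026 in grf123 against WT. They were 106 to 294 between the overexpressors, 1989 to 3615 between GRF1_OE and grf123, and 1652 to 3159 between GRF3_OE and grf123. The genes of the set called ranged, in the same order, from 0 to 2, 0 to 3, 0 to 4, 0 to 1, 3 to 5 and 3 to 6. The cause was not tested.

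The labels do not say that replicate numbers are the growth blocks, and the numbers did not pair the libraries: over 18 pairs with the same number in different genotypes, deviations from the genotype means correlated at -0.13 to 0.14 with 1 pair over 0.1, and 4 of 12 libraries correlated best with their own number. With the replicate block, 3710, 2017, 771, 228, 2949 and 2528 genes were called in the order above. Of the set, 1, 2 and 3 of the 9 genes tested against WT were called, and 0, 4 and 5 of 10 in the other comparisons. The block ended the JAZ1 call in grf123 against WT (edgeR adjusted p = 0.0618). Depth limits NATA1 in WT, JAZ10 and TAT3, which rest on few counts.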
